A study of Homo sapiens with 6 samples.

Results

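Aminoacyl-tRNA synthetases attach each amino acid to its tRNA, the step that readies amino acids for the ribosome. Human cells keep a cytosolic set for the main ribosomes and a nuclear-encoded mitochondrial set for the ribosomes inside mitochondria. Several cytosolic enzymes sit in a multi-synthetase complex held together by the non-enzyme scaffolds AIMP1 and AIMP2, and uncharged tRNA activates the kinase GCN2, which raises translation of the transcription factor ATF4. Many cytosolic synthetase genes are known targets of ATF4.

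These genes were followed in PANC-1, an established cell line from a human pancreatic ductal carcinoma. The treated group was exposed to CMR, a compound named by that code alone, at 8 µM for 48 h, and the other group was control cells. There were 3 poly(A)-selected RNA libraries per group. What the controls received is not in the labels, and neither is the origin of replicates from separate dishes. The p-values therefore cover the spread among these libraries alone, and that spread may be technical. The 38 genes were taken by symbol from the 58825 genes of the deposited table, and each symbol occurred once. They comprise 18 genes of the cytosol alone, the 2 genes GARS and KARS that each encode both the cytosolic and the mitochondrial enzyme, 16 mitochondrial genes and the 2 scaffolds. Mitochondrial genes carry a symbol ending in 2, and AIMP2 was counted as a scaffold despite its ending.

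Library totals ran from 51147268 to 70129221 counts, with each CMR library deeper than each control library. Genes of the mitochondrial genome took 4.40 to 4.93% of counts with CMR and 5.76 to 5.93% in control. The summed level of 5 epithelial markers (KRT7, KRT8, KRT18, KRT19 and EPCAM) was 151 to 278 FPKM with CMR and 610 to 707 FPKM in control, where FPKM are fragments per gene length and per library total. The 4 keratins were each lower in every CMR library than in any control library, and EPCAM overlapped between groups. The 4 endocrine markers INS, GCG, SST and CHGA had no count in any library, the 4 acinar and 3 endothelial markers had at most 23 counts, and among leukocyte markers CD3E had none, PTPRC at most 4 and CD68, also a lysosomal protein of other cells, 5259. The part of depth, mitochondrial RNA and epithelial markers in the results that follow was not tested. In bulk RNA, a change in the cells present and a change in RNA per cell cannot be told apart.

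Most synthetase genes of the cytosol were higher with CMR, while those of mitochondria went both ways. Across 19200 tested genes, with edgeR's quasi-likelihood F test and adjustment after Benjamini and Hochberg, 13 of 18 cytosolic genes rose at an adjusted p under 0.05 and 0 fell, while 20.5% of all tested genes rose. At an unadjusted p under 0.05, edgeR also placed 0 of the 18 lower, as did DESeq2 at its adjusted threshold. A change past 2-fold was called upward in 6 of the 18, where the share of all tested genes was 9.87%. Of the 16 mitochondrial genes 4 rose and 3 fell, with none past 2-fold. These counts stand near the background of 20.5% higher and 18.1% lower among all genes. Without control replicate 3 the mitochondrial genes higher were 2, and without control replicate 2 those lower were 1, while upper-quartile scaling gave 5 lower. The median log2 fold change was 0.81 for the cytosolic genes (range -0.11 to 1.93), 0.14 for the mitochondrial genes (range -0.67 to 0.76) and -0.01 for all tested genes. All 38 genes passed the filter on low counts. The difference between both sets was not tested beyond the ratios by amino acid given further on.

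The summed CPM (counts scaled for library size and composition) of the 18 cytosolic genes was 6337, 6547 and 6944 with CMR and 3497, 3543 and 3606 in control. The 16 mitochondrial genes summed to 779, 768 and 782 with CMR and 828, 804 and 780 in control. By CPM the cytosolic sums of both groups lay far apart, with a ratio of means of 1.86, whereas the mitochondrial sums overlapped, with a ratio of 0.97. By FPKM the mitochondrial sums did not overlap, at 168.7, 163.8 and 162.5 with CMR and 180.7, 177.1 and 170.9 in control. The ratio of means was then 0.94, so the overlap of the mitochondrial sums depends on the scale. IARS2 alone had a mean of 252 CPM with CMR and 342 CPM in control. The mitochondrial sums thus lean on that 1 gene and do not describe the others of the set. The 38 genes together took 0.890 to 0.930% of all counts with CMR and 0.520 to 0.537% in control.

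**Figure D1:**
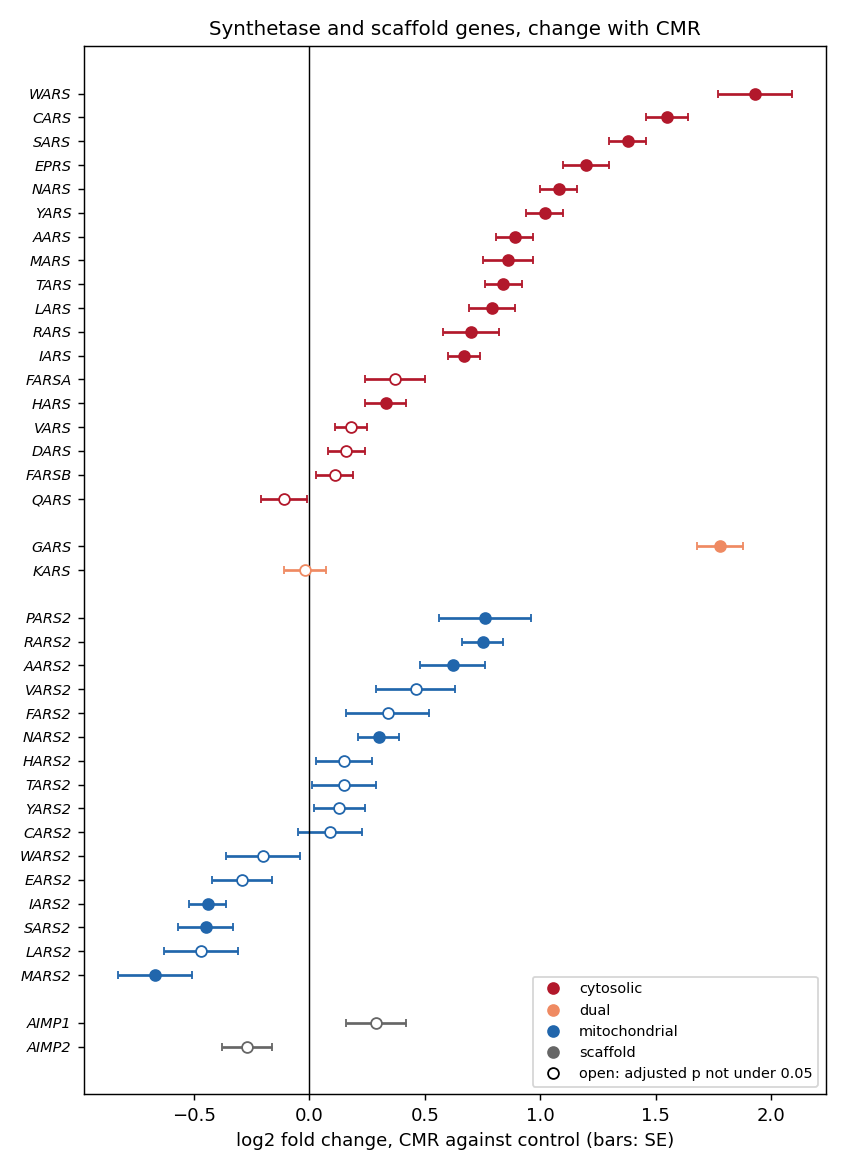
Log2 fold change of each gene, CMR against control (horizontal axis; bars are SE from edgeR, 3 libraries a group), grouped by compartment; filled points passed an adjusted p under 0.05. The cytosolic genes spread from -0.11 to 1.93 and the mitochondrial genes from -0.67 to 0.76.

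In the cytosolic and dual set, 7 genes rose past 2-fold, and these charge tryptophan, glycine, cysteine, serine, glutamate and proline, asparagine and tyrosine. In each of these 7 genes every CMR library lay above every control library. By CPM, groups did not overlap, with CMR higher, in 17 of 18 cytosolic genes, against 27.3% of all tested genes. Fewer did so by FPKM, as given below for DARS, FARSA and FARSB.

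WARS, the tryptophanyl-tRNA synthetase (ENSG00000140105, chromosome 14, 100333790 to 100376343, minus strand, in the coordinates of the deposited table), measured 366, 343 and 358 CPM with CMR and 70.9, 105 and 103 CPM in control. Control replicate 1 was the lowest library, and the groups stood well apart. The log2 fold change was 1.93 ± 0.16 (SE; edgeR adjusted p = 0.000206), the largest among the 38 genes.

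GARS, the glycyl-tRNA synthetase of both compartments (ENSG00000106105, chromosome 7, 30594838 to 30634033, plus strand), measured 1490, 1510 and 1600 CPM with CMR and 422, 412 and 504 CPM in control. By FPKM it had the highest level of the set in both groups. Its log2 fold change was 1.78 ± 0.10 (SE; edgeR adjusted p = 6.1e-05).

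CARS, which charges cysteine (ENSG00000110619, chromosome 11, 3000922 to 3057437, minus strand), measured 465, 466 and 530 CPM with CMR and 173, 154 and 171 CPM in control. It was 2.93-fold higher (edgeR adjusted p = 6.8e-05). SARS, which charges serine and also supplies the serine that is turned into selenocysteine on its tRNA, measured 369, 348 and 387 CPM with CMR and 138, 140 and 145 CPM in control. The SARS libraries of each group lay close together, and the gene was 2.61-fold higher (edgeR adjusted p = 6.2e-05).

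EPRS encodes a bifunctional enzyme that charges both glutamate and proline (ENSG00000136628, chromosome 1, 219968600 to 220046530, minus strand). It measured 1000, 1210 and 1270 CPM with CMR and 480, 511 and 525 CPM in control, 2.30-fold higher (edgeR adjusted p = 0.000241). CMR replicate 1 was the lowest treated library but still lay above each control library. NARS, which charges asparagine, measured 471, 490 and 513 CPM with CMR and 214, 235 and 246 CPM in control (2.12-fold higher, edgeR adjusted p = 0.000159). YARS, which charges tyrosine, measured 337, 311 and 347 CPM with CMR and 166, 154 and 170 CPM in control (2.03-fold higher, edgeR adjusted p = 0.000188).

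A further 7 cytosolic genes rose by less than 2-fold. AARS, which charges alanine, rose 1.85-fold from 188 ± 8.54 to 347 ± 26.0 CPM (SD, n = 3; edgeR adjusted p = 0.000366). TARS, which charges threonine, rose 1.79-fold from 380 ± 7.22 to 678 ± 55.9 CPM. LARS (leucine, also an amino acid sensor for mTORC1), RARS (arginine) and IARS (isoleucine) rose 1.73-fold, 1.62-fold and 1.59-fold. Their adjusted p ran from 0.000469 for IARS to 0.00398 for RARS.

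MARS, which charges methionine and so serves initiation as well as elongation, rose 1.82-fold from 184 ± 17.0 to 335 ± 34.7 CPM (SD, n = 3; edgeR adjusted p = 0.00102). Its span shares 982 bases with DDIT3, the transcription factor CHOP, on the other strand. DDIT3 measured 29.3 ± 1.57 CPM in control and 172 ± 7.54 with CMR. The strand of the reads is not known, and the part of DDIT3 in the MARS value was not tested.

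HARS, which charges histidine, had the smallest change among those called, a log2 fold change of 0.33 ± 0.09 (SE; edgeR adjusted p = 0.0249). The call was lost with upper-quartile scaling (adjusted p = 0.109), on log2(FPKM + 0.1) and on leaving out CMR replicate 2 or 3 or any control library (adjusted p from 0.0526 to 0.0929). HARS and HARS2 start head to head and their spans share 108 bases. HARS also shares 221 bases with WDR55 on the other strand (73.7% of its mean count). HARS2 shares 626 bases with ZMAT2 on the same strand (227% of its mean count). The part of these genes in the values was not tested. HARS2 measured 62.1, 64.4 and 60.2 CPM with CMR and 55.4, 49.0 and 63.6 in control, overlapping groups with a log2 change of 0.15 (edgeR adjusted p = 0.351).

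The other 5 cytosolic genes and KARS did not pass the test. FARSA and FARSB encode the catalytic and the partner subunit of the phenylalanine enzyme, and had log2 fold changes of 0.37 (edgeR adjusted p = 0.0546) and 0.11 (0.282). FARSA was called with DESeq2 (0.0368), with limma-voom (0.0458) and without control replicate 1 (0.0352). DARS, for aspartate, stood at 0.16 (0.155), VARS, for valine, at 0.18 (0.0854) and QARS, for glutamine, at -0.11 (0.425). By CPM, each CMR library still lay above each control library in DARS, VARS, FARSA and FARSB, and in QARS the groups overlapped. By FPKM the groups of DARS, FARSA and FARSB overlapped as well, so their separation depends on the scale.

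The 2 dual genes differed in their values. KARS, which charges lysine in both compartments, measured 201, 177 and 198 CPM with CMR and 190, 208 and 186 CPM in control, so the groups overlapped (log2 change -0.02 ± 0.09 SE, adjusted p by edgeR = 0.872). GARS, described above, rose 3.44-fold. The difference between both genes was not tested.

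**Figure D2:**
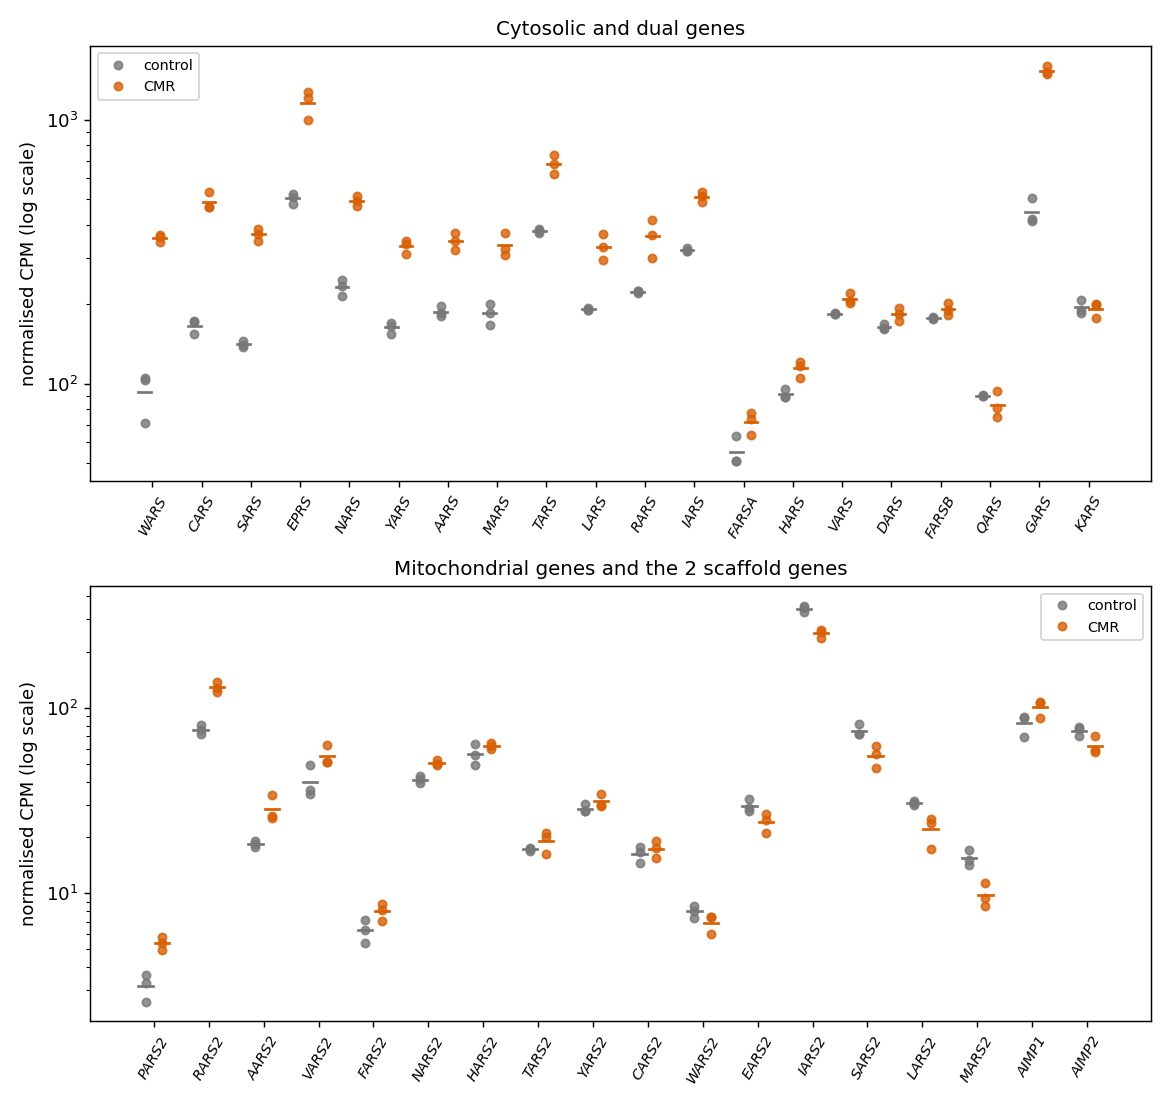
Normalised CPM of each library on a log axis (points; short lines are group means, 3 libraries a group), cytosolic and dual genes above and mitochondrial and scaffold genes below, ordered by fold change. The GARS libraries sit at 1490 to 1600 CPM with CMR and 412 to 504 in control, while those of KARS overlap.

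By position in the cell's machinery, 9 of 12 free-standing cytosolic or dual genes rose (median log2 fold change 0.95), and 5 of 8 enzymes of the multi-synthetase complex rose (EPRS, IARS, LARS, MARS and RARS; median 0.68), beside 20.5% of all tested genes. The difference between these subsets was not tested. The complex members that did not pass were DARS, KARS and QARS. The scaffold genes did not pass either, by edgeR or by DESeq2, and at an unadjusted p under 0.05 edgeR placed 1 of the 2 lower (AIMP2). AIMP1 measured 88.5, 108 and 106 CPM with CMR and 69.3, 89.4 and 88.1 in control, and AIMP2 measured 70.6, 58.9 and 57.6 with CMR and 79.0, 76.7 and 70.1 in control. By CPM both scaffolds overlapped between groups, with log2 fold changes of 0.29 (edgeR adjusted p = 0.126) and -0.27 (0.0975). By FPKM AIMP2 did not overlap, at 32.2, 26.2 and 25.3 with CMR and 37.3, 36.2 and 33.0 in control. AIMP1 was called higher in 1 of 16 alternatives, and AIMP2 was called lower in 4. Those for AIMP2 were edgeR with upper-quartile scaling (adjusted p = 0.0312) and without CMR replicate 1 (0.0217), and limma on log2(FPKM + 1) (0.0412) and log2(FPKM + 0.1) (0.0411). Its span overlaps that of EIF2AK1, which had 625% of its mean count, and strand is again not known.

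Synthetases fall into 2 unrelated structural classes that approach the tRNA from different sides. Of the cytosolic and dual genes, 8 of 10 class I genes rose (median log2 fold change 0.82) and 6 of 10 class II genes (median 0.61), beside 20.5% of all tested genes. EPRS, which charges both glutamate and proline, was counted in class I alone. Both classes thus held risen genes, and the difference between them was not tested.

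Among mitochondrial genes, RARS2 and PARS2 had the largest rises. RARS2, the mitochondrial arginine enzyme, measured 121, 128 and 138 CPM with CMR and 75.8, 80.8 and 72.3 in control (log2 change 0.75 ± 0.09 SE, adjusted p by edgeR = 0.000884). PARS2, the mitochondrial proline enzyme, measured 5.78, 4.97 and 5.37 CPM with CMR and 3.27, 3.62 and 2.61 in control (log2 fold change 0.76 ± 0.20, edgeR adjusted p = 0.0199). PARS2 was the least abundant gene of the set by CPM, and its call was lost without control replicate 1 (adjusted p = 0.0567) or control replicate 3 (0.0632). AARS2, for alanine, rose 1.54-fold (edgeR adjusted p = 0.0126), with CMR replicate 3 highest at 33.8 CPM. NARS2, for asparagine, rose 1.23-fold (edgeR adjusted p = 0.0382), a call lost in 12 of 16 alternative analyses, among them the omission of any library (adjusted p from 0.0508 to 0.134).

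The mitochondrial genes that fell charge isoleucine, methionine and serine. IARS2 measured 257, 261 and 238 CPM with CMR and 346, 353 and 326 in control (log2 change -0.44 ± 0.08 SE, adjusted p by edgeR = 0.00373). It was the most abundant mitochondrial gene in both groups, and its groups did not overlap. MARS2 measured 9.40, 11.3 and 8.56 CPM with CMR and 14.2, 17.1 and 15.2 in control (log2 fold change -0.67 ± 0.16, edgeR adjusted p = 0.0137). It had the largest fall of the 38 genes, and lost its call without control replicate 2 (adjusted p = 0.0565). SARS2 showed a log2 change of -0.45 (edgeR adjusted p = 0.0264), lost on leaving out CMR replicate 2 or 3 or any control library (adjusted p from 0.0536 to 0.101). The span of SARS2 overlaps that of MRPS12 on the other strand by 349 bases, a gene with 201% of its mean count.

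The other 9 mitochondrial genes did not pass. LARS2 came nearest, with 25.1, 17.4 and 23.9 CPM with CMR and 30.5, 31.5 and 30.0 in control (log2 fold change -0.47, edgeR adjusted p = 0.0501). Its groups did not overlap, and 6 of 16 alternatives called it lower. VARS2 showed a log2 change of 0.46 (edgeR adjusted p = 0.0723) and was called with DESeq2 (0.0429) and without control replicate 1 (0.0241). The span of VARS2 shares 5865 bases with GTF2H4 on the same strand, which had 28.3% of its mean count. EARS2, which also puts glutamate on the mitochondrial glutamine tRNA as a first step, stood at -0.29 and was called lower with upper-quartile scaling (0.0409). The remaining 6, CARS2, FARS2, HARS2, TARS2, WARS2 and YARS2, lay between -0.20 and 0.34 with overlapping groups. Among all 16 mitochondrial genes, groups did not overlap by CPM with CMR higher in 5 and with CMR lower in another 5, beside 27.3% and 26.6% of all tested genes.

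Levels per gene length differed between both sets in their medians, while their ranges overlapped. In control cells the cytosolic and dual genes ran from 10.4 FPKM (HARS) to 96.3 FPKM (GARS), with a median of 28.5. The mitochondrial genes ran from 1.12 FPKM (FARS2) to 71.3 FPKM (IARS2), with a median of 4.25. With CMR the medians were 39.3 and 4.12 FPKM. Across the 20 cytosolic and dual genes, log2 control FPKM and log2 fold change gave a Pearson r of 0.18 and a Spearman rho of 0.15, and across the 16 mitochondrial genes these were -0.21 and -0.22. Both are descriptions across genes that share the same 6 libraries.

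For 15 amino acids the cytosolic and the mitochondrial gene could be set against each other within each library, a ratio that library scaling does not move. The log2 ratio of counts was higher in each CMR library than in each control library for 10 of the 15, and overlapped for the other 5. How many gene pairs at large separate in this way was not counted. In these 10 pairs the mean difference between groups ran from 0.70 for threonine to 2.16 for tryptophan. Each of the 10 gave p = 0.1 in an exact two-sided permutation test, the smallest value that 3 libraries against 3 allow, so no pair could pass 0.05.

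Tryptophan, serine and isoleucine show the pattern. The log2 ratio of WARS to WARS2 was 5.63, 5.53 and 5.89 with CMR and 3.05, 3.83 and 3.67 in control. That of SARS to SARS2 was 2.57, 2.88 and 2.78 with CMR and 0.76, 0.96 and 1.01 in control. For isoleucine the mitochondrial gene was the more abundant in control: IARS stood at 0.525 ± 0.0296 of the IARS2 level in FPKM (SD, n = 3), and at 1.13 ± 0.0308 with CMR. Histidine was the other pair in which the mitochondrial gene had the higher FPKM in control, at a HARS to HARS2 ratio of 0.811 ± 0.0825, and 0.911 ± 0.0826 with CMR.

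The 5 pairs with overlapping ratios were alanine, histidine, phenylalanine, arginine and valine. For arginine both genes rose (RARS 1.62-fold, RARS2 1.69-fold), and the log2 ratio was 1.48 ± 0.15 with CMR and 1.55 ± 0.08 in control (SD, n = 3; exact permutation p = 0.6). For alanine both genes rose as well, and the ratio differed by 0.27 (exact permutation p = 0.4). For valine the mean ratio was lower with CMR, by a difference of -0.29 (exact permutation p = 0.3), and without control replicate 1 each CMR library lay below each control library.

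**Figure D3:**
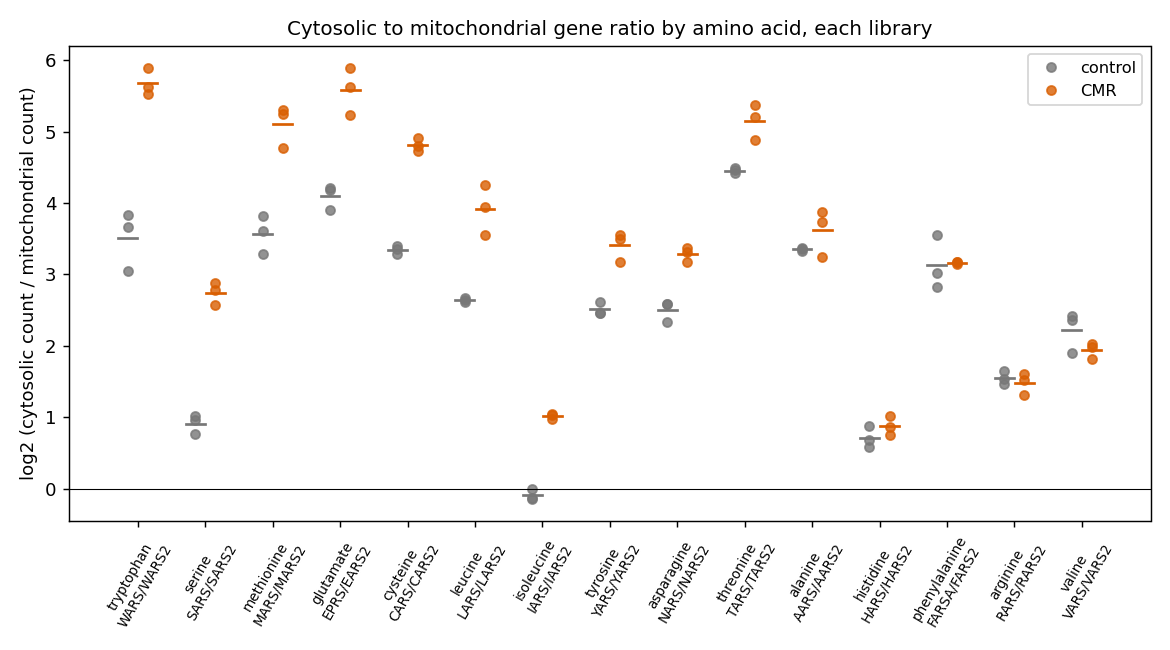
Log2 ratio of cytosolic to mitochondrial counts in each library (points; short lines are means, 3 libraries a group) for 15 amino acids, ordered by the difference between groups. Tryptophan differs most, 5.68 against 3.52, and for the 5 amino acids at the right the groups overlap.

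Of the 20 cytosolic and dual genes 14 rose, beside 20.5% of all tested genes. Start-site sequences were compared for the CARE, a composite element that ATF4 binds with C/EBP partners. The part of ATF4 in the rise of these genes was not tested. ATF4 mRNA itself measured 750, 662 and 711 CPM with CMR and 298, 273 and 265 in control (2.54-fold higher, edgeR adjusted p = 8.3e-05). RefSeq windows from 250 bases before to 50 after a start (GRCh38.p14) were found for 32 of the 38 genes. No window was found for AARS2, DARS, LARS, VARS, VARS2 and YARS. The core TGATGNAA was searched on both strands. It occurred in 7 of 16 cytosolic or dual genes with a window, in 1 of 14 mitochondrial genes (YARS2) and in neither scaffold, and 3.62% of all 35116 windows and 4.46% of the 27305 genes held it. The matches in the 8 genes follow, so that the element and its flanks can be compared between genes. Capitals mark the core, and each is written 5′ to 3′ on the strand that reads TGATG.

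AARS: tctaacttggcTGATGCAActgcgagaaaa
CARS: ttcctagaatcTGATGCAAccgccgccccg
GARS: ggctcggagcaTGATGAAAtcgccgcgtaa
IARS: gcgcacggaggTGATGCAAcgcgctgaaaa
MARS: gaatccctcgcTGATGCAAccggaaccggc
NARS: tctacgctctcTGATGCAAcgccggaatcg
TARS: gctggaccagcTGATGCAAtcgaaaggcgc
YARS2: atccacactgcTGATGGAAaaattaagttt

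The stretches lie at chr16:70289675-70289704 (plus strand, AARS), chr11:3057407-3057436 (plus, CARS), chr7:30594834-30594863 (minus, GARS), chr9:92293692-92293721 (plus, IARS), chr12:57488053-57488082 (minus, MARS), chr18:57621804-57621833 (minus, NARS), chr5:33440956-33440985 (minus, TARS) and chr12:32756076-32756105 (minus, YARS2). The strand is that of the printed letters. In AARS, CARS, GARS, IARS, MARS and TARS it is opposite to the gene, and in NARS and YARS2 the same. The match began 187 bases upstream of the RefSeq start in AARS and 197 in YARS2. In CARS, MARS, IARS and GARS it began 2, 4, 13 and 33 bases upstream, and in TARS and NARS at base 3 and base 15 after the start. Of the 7 cytosolic or dual matches, 6 read TGATGCAA and GARS reads TGATGAAA.

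The 7 cytosolic or dual genes with the core all rose, where 20.5% of all tested genes rose. Their log2 fold changes ran from 0.67 to 1.78, with a median of 0.89. Of the 9 with a window and no match, 5 rose (EPRS, HARS, RARS, SARS and WARS), and the 9 ranged from -0.11 to 1.93 with a median of 0.37. WARS and SARS thus rose past 2-fold with no core in these windows. YARS2, with the core, was not called (log2 fold change 0.13). LARS and YARS, which rose, and DARS and VARS, which were not called, had no window and stand outside this split. No test was made of it, and the share that rose among all genes with the core was not counted. The cAMP response element TGACGTCA, held by 1.85% of windows, occurred in AIMP2 alone of the 32 genes, and the ER stress element (ERSE), held by 0.08%, in none.

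**Figure D4:**
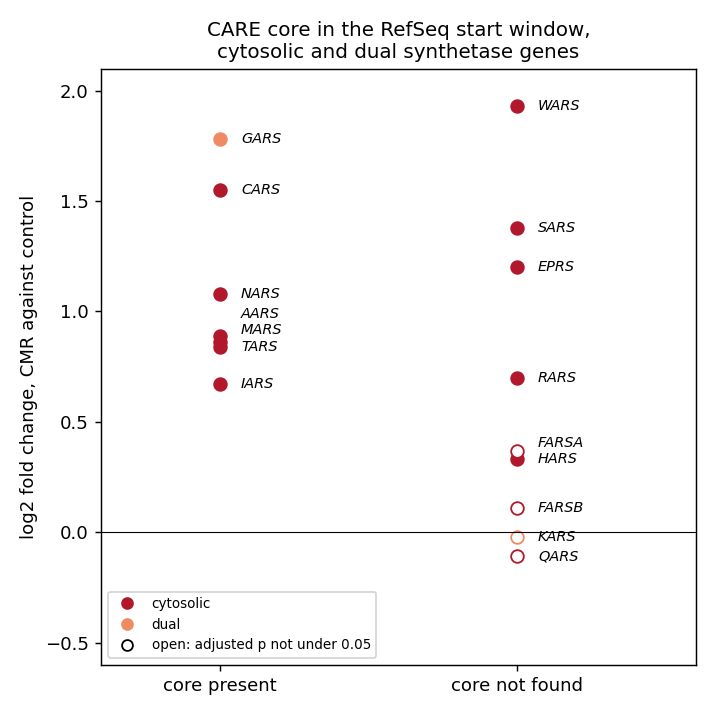
Log2 fold change (vertical axis) of the 16 cytosolic and dual genes with a RefSeq start window, split by whether the window holds the CARE core; filled points passed an adjusted p under 0.05. Those with the core lie from 0.67 to 1.78 and those without from -0.11 to 1.93.

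Other genes of tRNA charging and delivery gave 8 higher and 2 lower of 23, beside 20.5% and 18.1% of all tested genes. The counts were 4 and 4 with upper-quartile scaling, and 4 and 1, 5 and 1, and 5 and 1 without control replicate 1, 2 and 3. The largest changes were in TARSL2, a second cytosolic threonyl-tRNA synthetase (59.1, 67.8 and 92.4 CPM with CMR; 21.4, 22.6 and 24.6 in control; 3.20-fold higher, edgeR adjusted p = 0.000535), and in XPOT, which exports tRNA from the nucleus (655, 720 and 753 CPM with CMR; 269, 273 and 278 in control; 2.60-fold higher, edgeR adjusted p = 6.5e-05). EEF1A2, a factor that carries charged tRNA to the ribosome, fell (log2 fold change -0.81, edgeR adjusted p = 0.00115). The groups of these 3 genes did not overlap. EEF1A1, the paralog with the same role, had far more counts and rose (12400 CPM in control against 15100 with CMR; log2 change 0.29, adjusted p by edgeR = 0.0304), a call lost in 8 of 16 alternatives, among them upper-quartile scaling (0.199) and the omission of any control library (0.0678 to 0.102). EEF1B2, an exchange factor for it, rose as well (log2 change 0.28, adjusted p by edgeR = 0.0132), a call lost with upper-quartile scaling (0.112) and without control replicate 1 (0.0672). The third scaffold of the complex, EEF1E1, rose 1.38-fold (edgeR adjusted p = 0.00676). EIF2AK4, which encodes GCN2, did not pass (log2 change 0.22, adjusted p by edgeR = 0.0990), nor did its partner gene GCN1 (0.14, 0.173).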

How the data were processed

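Each gene has 1 count and 1 FPKM value per library in the deposited table. The deposited counts are whole, unnormalized numbers; FPKM values were scaled by the authors for gene length and depth, per the file headers, and a gene without counts is listed at 0.0001. HISAT2 2.0, StringTie 1.3.0, Bowtie 0.12.2 and the mouse build mm8 are named in the submitters' processing notes. Not given in the sources used here are the counting step and strandedness. The gene identifiers are human, and 81.2% of the 58552 that are in GENCODE release 29 have the same GRCh38 position there, as do 14 of the 38 members; coordinates and span overlaps are therefore those of the deposited table. The labels' protocol also names an adipose source, which does not match the cell line.

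Counts were tested with edgeR 4.0.16 (R 4.3.3), using a quasi-likelihood F test after TMM scaling. Its filterByExpr (minimum count 10, minimum total 15) kept 19200 genes, over which p-values were adjusted (Benjamini-Hochberg). The test was checked on simulated counts. Alternatives used limma 3.58.1 and DESeq2 1.42.0, other scalings and filters, FPKM, the replicate number as a block and each library left out. The members and lists were chosen with earlier results of these data known. All 38 members are reported; values in each library are given for those past 2-fold, the dual and scaffold genes and the mitochondrial gene with the largest rise and fall, and for others chosen after their values were seen (HARS2, IARS2, LARS2, RARS2). Other pathway genes named by rule were the 3 largest called changes; EEF1A1, EEF1B2, EEF1E1, EIF2AK4 and GCN1 were chosen after their values were seen, and 1 gene of that list is counted but not reported here. Span overlaps count genes with at least 10% of the member's mean count, and not all of them are described. Figures were drawn with matplotlib 3.10.9.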

Additional observations from a re-analysis of the deposited data

How the results depend on the processing

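Across 16 alternatives, 13 of the 14 cytosolic or dual genes called higher kept that call in each, HARS being the exception, and 3 of the 7 called mitochondrial genes did so (AARS2, IARS2 and RARS2). The count of cytosolic genes higher ran from 12 to 14, with 0 lower in each alternative. Upper-quartile scaling took the all-gene median log2 change from -0.01 to -0.14; under it 5 mitochondrial genes were lower, 1 scaffold was lower, and the other pathway genes were 4 higher and 4 lower. That list had 4 lower also with library totals, with a filter at 1 FPKM and on log2(FPKM + 1) or log2(FPKM + 0.1), and 1 scaffold was lower on both FPKM scales. With the replicate number as a block, 1 scaffold was higher (AIMP1, adjusted p = 0.0491) and NARS2 lost its call (0.0727). Same-numbered libraries deviated together with r of 0.03, 0.04 and 0.05, and libraries of unlike number with r from -0.03 to -0.01. Each library thus correlated best with its own number, though weakly. Whether the numbers mark a pairing cannot be told from these values. Leaving out 1 library at a time gave 2 to 3 mitochondrial genes higher and 1 to 4 lower, 0 to 1 scaffolds lower, 4 to 9 other pathway genes higher and 1 to 2 lower, and 0 to 1 amino acid pairs with a lower ratio in each CMR library. Signs that turned were all among values not called: FARSB (-0.02) and CARS2 (-0.04) with upper-quartile scaling, and KARS without CMR replicate 2 (0.03) or control replicate 2 (0.03), in a range of -0.06 to 0.03 over the libraries left out. The phenylalanine ratio difference turned with FARSB in place of FARSA (-0.23), without control replicate 2 (-0.12) and without control replicate 3 (-0.02), in a range of -0.12 to 0.25, and the arginine one without CMR replicate 1 (0.01), in a range of -0.13 to 0.01. The causes were not tested.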
